A study of Mus musculus with 26 samples.

Results

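RNA of mouse CD4+ T cells cultured with TGFb, called iTreg (induced regulatory T cells), was compared with RNA of Th0 cells, the same kind of starting cells activated without TGFb. The comparison takes the 2 TGFb and the 2 Th0 libraries of the 26 in the series, chosen by their labels alone, and covers all genes of the count table. Of 21761 genes, 92 of them without a symbol, 11287 had enough reads to be tested. Foxp3 stood 33.7 times higher in the TGFb cultures, and 27 of the 31 tested genes of a Treg signature list were higher with it. Genes lower in the TGFb cultures included Ctnnd2, Cxcr6, Pou2af1, Pim2 and Tcf7, and, by smaller amounts, many genes of DNA replication, ribosome biogenesis and amino acid supply.

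The series concerns vitamin C and TET enzymes, which oxidise methylated cytosine, in Treg cells. All 4 libraries came from Foxp3-eGFP reporter mice on a C57BL/6 background, 5 to 6 weeks old, from spleen and lymph nodes. In the TGFb group, naive CD4+ T cells were differentiated into iTreg in the presence of TGFb; in the Th0 group they were differentiated with antibodies to CD3 and CD28. Neither label mentions vitamin C or retinoic acid, which other cultures of the series received. Naive cells (2 libraries) from mice of the same strain, reporter and age range, sorted as CD4+, eGFP negative, CD25 negative, CD62L high and CD44 low, give the level before culture. The labels do not state the length of these cultures, the dose of TGFb, the other cytokines in either medium, or whether the cultured cells were sorted for Foxp3, so the TGFb libraries may hold a mixture of Foxp3-expressing and other cells.

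Comparisons that hold none of the 4 TGFb and Th0 libraries are set beside this one. In the first, Treg cells sorted directly from mice as CD4+ eGFP+ cells (4 libraries, called control Treg here) are compared with the 2 naive libraries. These mice were 3 weeks old and carried floxed Tet2 and Tet3 alleles, written Tet2fl/fl Tet3fl/fl Foxp3-eGFP, with no Cre named in the label. In the second, cells made with TGFb in another experiment were sorted as Foxp3-negative after restimulation with antibodies to CD3 and CD28 (3 libraries), and are compared with TGFb iTreg sorted as Foxp3-positive on day 6 of culture (3 libraries), both from reporter animals with Foxp3-eGFP, aged 12 to 14 weeks. Foxp3 in that pair is set by the sort.

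TGFb is a secreted cytokine that binds a pair of receptor kinases, TGFBR2 and TGFBR1, which phosphorylate SMAD2 and SMAD3; these join SMAD4 and act on genes in the nucleus, among them the feedback inhibitors Smad7 and Skil. In naive CD4+ T cells stimulated through the T cell receptor, TGFb with IL-2 induces Foxp3, the transcription factor that defines Treg cells. Together with other cytokines, TGFb also takes part in Th17 differentiation, and it is known to restrain Th1 and Th2 differentiation and T cell proliferation.

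Levels are given as CPM, the read count of a gene scaled to a common library total, with TMM correcting for differences in composition. The 2 TGFb libraries held 10963459 and 10487511 counted reads, the 2 Th0 libraries 10247927 and 10073156, and the naive libraries 9925908 and 9647669. Replicates of a group correlated at 0.995 across genes for TGFb and 0.994 for Th0 (Pearson, log2 CPM), and each pair differed by more than counting noise. The first principal component of the naive and cultured libraries held 76.1% of the variance and parted naive from cultured cells; on the second, with 14.8%, the TGFb libraries lay at 8.71 and 5.97 and the Th0 libraries at 27.4 and 27.8. The summed CPM of 12 measured T cell markers was 6402 and 6634 in the TGFb libraries and 6600 and 6373 in the Th0 libraries. The labels do not say that replicates came from separate mice or cultures. Each p-value sets a difference against the spread between replicates, which may therefore be technical. That spread was estimated from all 12 naive and cultured libraries in 6 groups. In bulk RNA, fewer cells that express a gene and less RNA per cell cannot be told apart.

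By edgeR's quasi-likelihood test with Benjamini-Hochberg adjustment over all tested genes, 2943 genes changed at an adjusted p under 0.05, or 26.1% of those tested. Of these, 1631 (14.5%) were higher in TGFb iTreg and 1312 (11.6%) lower. The changes of at least 2-fold ran mostly upward, with 500 genes higher (4.43% of those tested) and 154 lower (1.36%). A value with ± after a gene is its log2 fold change with the SE, for a gene called by this test unless it is said not to have passed. At 4-fold the numbers were 203 higher and 58 lower. The median log2 fold change over all tested genes was -0.0024. Leaving out a library leaves that group with 1 sample, assumed to vary like the other groups, and reduced the calls to 1539 without TGFb replicate 1, 1772 without TGFb replicate 2, 1480 without Th0 replicate 1 and 1945 without Th0 replicate 2. The genes higher by 2-fold then numbered 382, 460, 375 and 457 in the same order, and those lower 144, 123, 178 and 155.

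**Figure D1:**
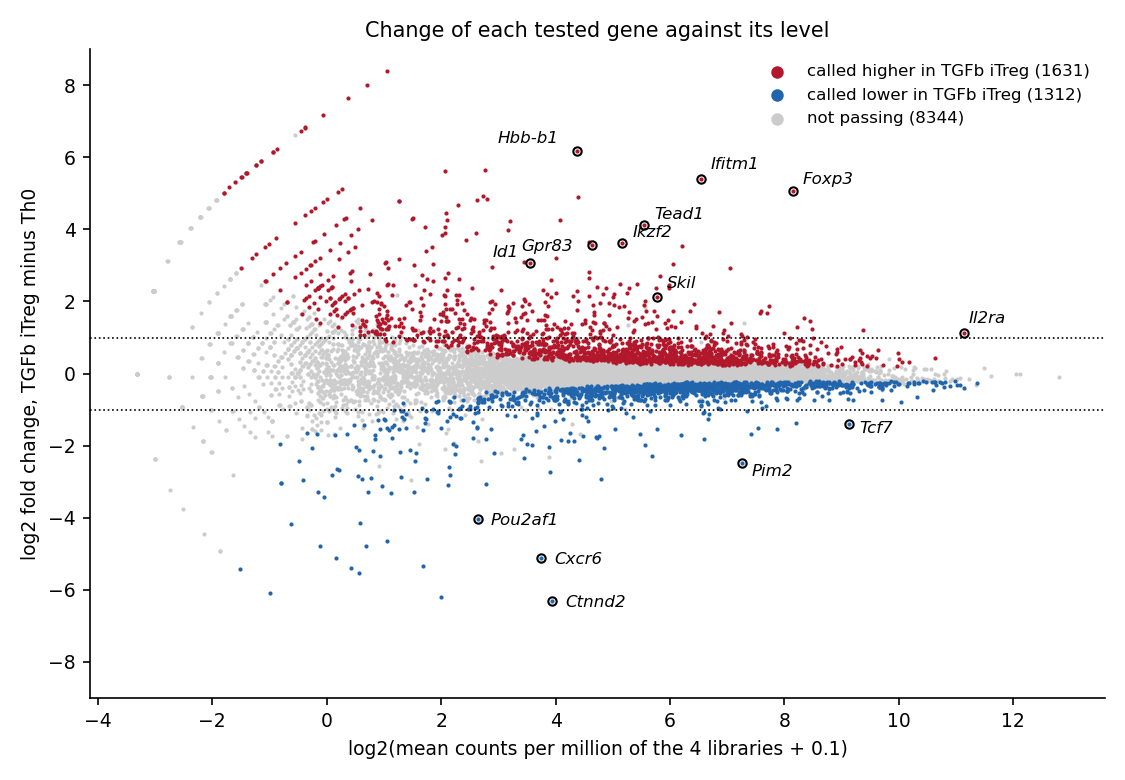
Log2 fold change of each tested gene (vertical axis, TGFb iTreg minus Th0) against its mean level over the 4 libraries on a log2 scale (horizontal axis), with 1631 genes called higher in red, 1312 called lower in blue and 8344 not passing in grey. Foxp3 lies apart from genes of its level, Ctnnd2 and Cxcr6 at the bottom, and dotted lines mark 2-fold; the streaks at the left are genes with 0 or a few reads in a group, whose fitted values depend on the prior count.

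The Treg signature list holds 36 genes, of which 31 were tested; 27 were higher in TGFb iTreg, 1 was lower and 3 did not pass, with a median log2 fold change of 1.40. Without 1 library at a time, 25 to 27 of them were higher. The list was chosen with earlier results of these data known and is described, not tested. Counts of this and the later lists stand against 14.5% higher and 11.6% lower among all tested genes.

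Foxp3 read 539 and 558 CPM in the TGFb libraries, against 15.9 and 16.6 CPM in the Th0 libraries and 27.1 and 27.3 CPM in naive cells. The log2 fold change was 5.08 ± 0.12 (SE, edgeR adjusted p = 4.8e-13). Both TGFb libraries lay far above every Th0 and naive library, and both Th0 libraries read below both naive ones. Control Treg averaged 648 CPM in a separate fit. Per kilobase of exon, Foxp3 averaged 140.1 FPKM in TGFb iTreg and 4.06 FPKM in Th0 cells.

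Transcription factors and surface proteins that accompany Foxp3 in Treg cells were among the higher genes. Ikzf2, which encodes the Ikaros family factor Helios, stood at 62.6 and 69.8 CPM in TGFb iTreg and 3.90 and 6.83 CPM in Th0 cells (log2 fold change 3.62 ± 0.18). Its relative Ikzf4, or Eos, a partner of Foxp3, stood at 24.7 and 29.5 CPM in TGFb iTreg, against 10 and 15 CPM in Th0 cells (1.12 ± 0.21). Gpr83, an orphan receptor that marks Treg cells, had 36.5 and 54.9 CPM in the TGFb libraries and 2.90 and 4.72 CPM in the Th0 libraries (3.58 ± 0.32). The groups did not overlap in any of these, as in 67.5% of all tested genes, which is common with 2 libraries a group. Nrp1, the semaphorin receptor neuropilin-1, had 85.1 and 96.9 CPM with TGFb and 16.3 and 18.7 CPM in Th0 cells (2.38 ± 0.16). Helios and neuropilin-1 have been used as marks of thymus-derived Treg cells, and both transcripts were higher in these TGFb-induced cells than in Th0 cells, although control Treg carried more of each (442 and 418 CPM).

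Several genes of known suppressor function were higher with TGFb. Ctla4, the inhibitory receptor that takes CD80 and CD86 from other cells, had 317 and 354 CPM in TGFb iTreg, against 73.6 and 109.8 CPM in Th0 cells (1.87 ± 0.16). Nt5e and Entpd1, the ectoenzymes CD73 and CD39 that turn extracellular ATP into adenosine, had log2 fold changes of 1.74 ± 0.18 and 1.40 ± 0.14. Ebi3, a subunit of IL-35 and IL-27, had 32.4 and 31.8 CPM in TGFb iTreg and 7.60 and 6.93 CPM in Th0 cells (2.14 ± 0.14). Fgl2 was higher as well, at 58.6 and 28.7 CPM in TGFb iTreg against 9.0 and 13.6 CPM in Th0 cells. The Fgl2 call was lost without the filter on low counts and with the 4 TGFb and Th0 libraries fitted alone. Il10 had no read in either TGFb library and 1 read in all in the Th0 libraries, at a limit that a count of 0 allows of 0.139 CPM (3 reads over the TGFb group, counting error only).

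Growth factor receptors of Treg cells moved by smaller folds at high levels. Il2ra, or CD25, the high-affinity chain of the IL-2 receptor, read 2997 and 3187 CPM in TGFb iTreg, against 1298 and 1561 CPM in Th0 cells, and only 3.05 and 2.69 CPM in naive cells (1.11 ± 0.09). Il2rb, the signalling beta chain, read 864 and 996 CPM in TGFb iTreg, against 375 and 429 CPM in Th0 cells (1.21 ± 0.10). The tumour necrosis factor receptor genes Tnfrsf18 (GITR) and Tnfrsf4 (OX40) had log2 fold changes of 0.85 ± 0.15 and 0.96 ± 0.13. For CD25 the gap between Th0 and naive cells was far larger than that between the cultures. Tnfrsf9 (4-1BB) did not pass: it had 71.9 and 76.4 CPM in TGFb iTreg but 6.30 and 34.8 CPM in the Th0 libraries, which differed from each other (edgeR adjusted p = 0.054).

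A few members of the list stood apart. Nrn1, the neuronal protein neuritin that is linked to Treg and anergic T cells, was the 1 member lower in TGFb iTreg, with 85.2 and 77.2 CPM in TGFb iTreg against 228 and 291 CPM in Th0 cells (-1.67 ± 0.29). Capg stood at 618 and 597 CPM in TGFb iTreg, against 609.6 and 533 CPM in Th0 cells, and Lag3 at 1.82 and 1.71 CPM in TGFb iTreg, against 0.70 and 0.804 CPM in Th0 cells; neither passed. Itgae, the CD103 integrin chain that TGFb is known to induce, had 1.18 and 2.28 CPM in the TGFb libraries and 0.400 and 0.402 CPM in the Th0 libraries. The Itgae call was lost without TGFb replicate 2, Th0 replicate 1 or Th0 replicate 2 (edgeR adjusted p = 0.018 with all libraries). Gzmb, a granule protease, had 329 and 302 CPM in TGFb iTreg, against 52.6 and 144 CPM in Th0 cells, and its call was lost without either TGFb library. Prdm1, which encodes the repressor Blimp-1, had 16.5 and 7.97 CPM in TGFb iTreg against 5.00 and 5.93 CPM in Th0 cells and lost its call without TGFb replicate 1 or Th0 replicate 1.

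**Figure D2:**
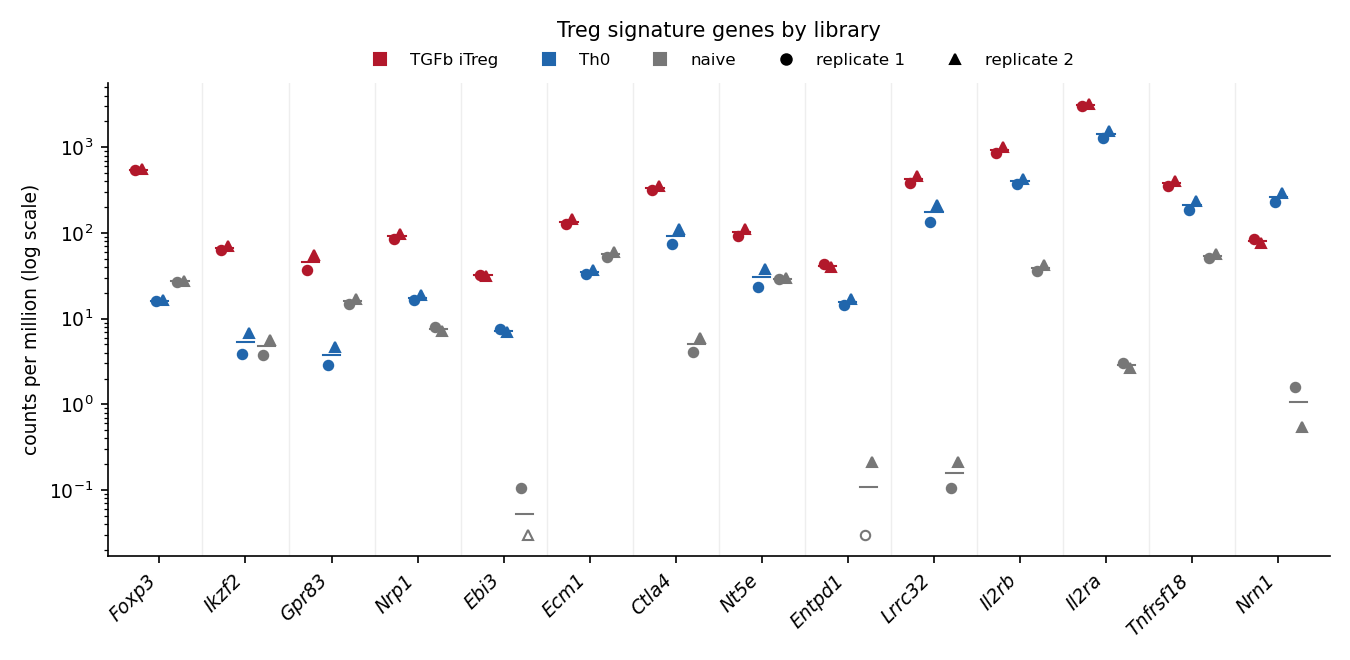
CPM of 14 Treg signature genes in each library on a log axis, with TGFb iTreg in red, Th0 in blue and naive cells in grey; circles and triangles are replicates 1 and 2, lines are group means and open symbols at the bottom are values of 0. The red points lie above the blue ones for 13 of the genes, from Foxp3 at 539 and 558 CPM in TGFb iTreg against 15.9 and 16.6 CPM in Th0 cells down to Tnfrsf18, and below them for Nrn1.

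Among called genes with a mean of at least 10 CPM in the higher group and no overlap between groups, Ctnnd2 had the largest fall. Ctnnd2, or delta-catenin, is a cell junction protein best known from neurons. It read 0.455 and 0.285 CPM in TGFb iTreg, against 33.3 and 27.1 CPM in Th0 cells (-6.30 ± 0.31, edgeR adjusted p = 1.1e-08). Naive cells had 0.210 and 0.107 CPM, so the Th0 cultures were the only 1 of these 3 groups with a substantial level. Cxcr6, the receptor of the chemokine CXCL16 found on effector and tissue-resident T cells, read 1.09 and 0.380 CPM with TGFb and 28.1 and 23.9 CPM in Th0 cells (-5.11 ± 0.42), with 1.05 and 0.752 CPM in naive cells. For both genes the TGFb cultures stayed near the naive level.

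Other genes with large falls were expressed in naive cells. Pou2af1, a lymphocyte coactivator of the octamer factors, had 0.637 and 0.759 CPM in TGFb iTreg, against 13.6 and 9.75 CPM in Th0 cells and 17.3 and 19.9 CPM in naive cells (-4.04 ± 0.32). Pim2, a serine/threonine kinase of cell survival and growth, had 54.5 and 37.2 CPM in TGFb iTreg, against 248 and 269 CPM in Th0 cells (-2.49 ± 0.16). Tcf7, the gene of the transcription factor TCF-1 that keeps naive and memory T cells, had 327 and 284 CPM in TGFb iTreg, against 879 and 748 CPM in Th0 cells (-1.41 ± 0.12). Naive cells had 2253 and 2534 CPM of Tcf7, so both cultures lay below them and TGFb iTreg lay lowest. The remaining genes of the 15 largest falls were Plac8, Prelid2, Slc16a10, Ms4a4c, Mcoln2, Ehd3, Ggt1, Hemgn, Synpo, Mctp1 and Cyp2s1, with log2 fold changes between -3.06 and -1.97; Plac8 (1.64 and 1.23 CPM in TGFb iTreg against 6.10 and 18.2 CPM in Th0 cells) was lost without either TGFb library.

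The 250 bases before the start of 2 genes higher in TGFb iTreg and 2 genes lower in it are shown because SMAD proteins are known to bind the short box CAGAC, and these genes are among those most changed in each direction. Sequences are from RefSeq (GRCm38.p6), on the plus strand and 5′ to 3′; the deposited files use mm9, and the coordinates are those of the RefSeq table only. Capitals mark CAGAC or its reverse complement GTCTG. The listed windows are chrX:7579426-7579675 for the first of 2 listed starts of Foxp3, chr9:14859960-14860209 for Gpr83, chr15:30172284-30172533 for Ctnnd2 and chr9:123806227-123806476 for Cxcr6.
Foxp3: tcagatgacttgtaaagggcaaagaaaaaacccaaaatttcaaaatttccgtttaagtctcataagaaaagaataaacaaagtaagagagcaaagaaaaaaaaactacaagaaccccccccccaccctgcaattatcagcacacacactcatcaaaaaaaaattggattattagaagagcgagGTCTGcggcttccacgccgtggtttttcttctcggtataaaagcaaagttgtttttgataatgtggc
Gpr83: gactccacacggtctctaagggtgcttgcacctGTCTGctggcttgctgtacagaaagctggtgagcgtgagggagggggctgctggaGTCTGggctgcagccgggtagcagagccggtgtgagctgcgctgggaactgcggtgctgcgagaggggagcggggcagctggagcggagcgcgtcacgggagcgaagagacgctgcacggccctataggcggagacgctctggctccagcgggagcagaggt
Ctnnd2: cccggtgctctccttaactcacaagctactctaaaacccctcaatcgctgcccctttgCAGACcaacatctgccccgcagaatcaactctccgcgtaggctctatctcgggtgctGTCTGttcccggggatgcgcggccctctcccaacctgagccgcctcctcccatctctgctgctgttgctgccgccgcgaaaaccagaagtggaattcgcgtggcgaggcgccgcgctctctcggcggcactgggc
Cxcr6: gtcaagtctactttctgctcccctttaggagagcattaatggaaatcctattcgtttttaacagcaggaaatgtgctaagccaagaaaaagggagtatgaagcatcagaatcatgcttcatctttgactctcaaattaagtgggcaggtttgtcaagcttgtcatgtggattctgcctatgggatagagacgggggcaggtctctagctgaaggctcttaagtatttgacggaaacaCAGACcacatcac

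The windows of Gpr83 and Ctnnd2 hold 2 matches each and those of Foxp3 and Cxcr6 hold 1; the window of the second listed Foxp3 start holds 0. A match to so short a run of letters is common. Of the 9088 tested genes with a RefSeq promoter, 45.4% hold CAGAC or GTCTG in the 250 bases before at least 1 listed start. The share was 45.8% of the 382 matched genes that were 2-fold higher in TGFb iTreg and 55.6% of the 124 that were 2-fold lower. The palindrome GTCTAGAC, a stronger SMAD3 and SMAD4 box, was in 1 of the 382, in 0 of the 124 and in 25 of all 9088. The AP-1 motif TGANTCA, its own reverse complement, was in 7.59% and 9.68% of these promoters and in 5.02% of all. These are descriptions of windows; distal elements such as enhancers were not used here.

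The largest rises outside the Treg list were of mixed kinds. Ifitm1, a small membrane protein of the interferon-induced family, had 194 and 168 CPM in TGFb iTreg and 4.5 and 4.12 CPM in Th0 cells (5.39 ± 0.23). Tead1, the DNA-binding partner of YAP in the Hippo pathway, had 93.1 and 83.8 CPM in TGFb iTreg, against 5.40 and 4.72 CPM in Th0 cells (4.12 ± 0.37). Tlr2, a receptor of bacterial lipoproteins, had 46.2 and 42.9 CPM in TGFb iTreg, against 3.30 and 3.72 CPM in Th0 cells (3.66 ± 0.21). Naive cells had at most 5.91 CPM of any of the 3. Car5b, a mitochondrial carbonic anhydrase, and Fes, a cytoplasmic tyrosine kinase, had log2 fold changes of 4.89 ± 0.20 and 4.94 ± 0.29. The others of the 15 largest were Myof, Sdc4, Tcea3, Cd72, Cd24a and Csn2 with the beta globins below; Sdc4, the heparan sulphate proteoglycan syndecan-4, had 11.2 and 12.2 CPM in TGFb iTreg, against 0 and 0.804 CPM in Th0 cells.

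Beta globin RNA was higher in TGFb iTreg, and the alpha globin gene Hba-a2 did not pass. Hbb-b1 read 44.9 and 36.2 CPM in TGFb iTreg, against 0.400 and 0.703 CPM in Th0 cells (6.17 ± 0.51), and Hbb-bs 14.5 and 11.9 CPM in TGFb iTreg, against 0.300 and 0.201 CPM in Th0 cells (5.65 ± 0.33). Hba-a2 read 134 and 93.4 CPM in TGFb iTreg and 138 and 97.3 CPM in Th0 cells. The red cell gene Slc4a1 had no read in any of the 4 libraries, and Alas2 had at most 0.455 CPM. The globin copies are nearly identical in sequence, so the split of reads among them depends on the authors' counting.

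Of 42 listed genes of the TGFb pathway, 32 were tested; 13 were higher in TGFb iTreg, 1 was lower and 18 did not pass, with a median log2 fold change of 0.38. Without TGFb replicate 1 or Th0 replicate 1, 9 were higher, and 11 and 12 without TGFb replicate 2 and Th0 replicate 2. The ligand gene Tgfb1 did not pass, at 326 and 300 CPM with TGFb and 324 and 296 CPM in Th0 cells; Tgfb2 had no read. Lrrc32, or GARP, which holds latent TGFb on the surface of Treg cells, had 386 and 464 CPM in TGFb iTreg and 135 and 212 CPM in Th0 cells (1.29 ± 0.17).

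Among receptors, Tgfbr1, the type I receptor kinase, was higher at 80.2 and 77.2 CPM in TGFb iTreg against 46.5 and 50 CPM in Th0 cells (0.70 ± 0.09). Tgfbr2, the type II receptor that binds TGFb first, had 176 and 156 CPM in TGFb iTreg and 187 and 173 CPM in Th0 cells and did not pass; both cultures lay under the naive cells, with 837 and 823 CPM. Tgfbr3, the co-receptor betaglycan, was the 1 gene of the pathway list that fell, to 13.5 and 10.2 CPM in TGFb iTreg, against 39.2 and 41.3 CPM in Th0 cells and 181 and 163 CPM in naive cells (-1.77 ± 0.21). Among receptors of the activin and BMP branches, Acvr1b was higher at 0.85 ± 0.10 and Bmpr1a at 1.43 ± 0.16 on the log2 scale. Acvr2a and Bmpr2 were also called, and both calls were lost without TGFb replicate 1, Th0 replicate 1 or Th0 replicate 2, while Acvr1 and Acvrl1 did not pass and Acvr2b and Bmpr1b were under the filter. The receptor-activated SMAD genes Smad2 and Smad3 and the shared Smad4 did not pass, with log2 fold changes of -0.13, 0.24 and 0.11.

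Inhibitors of the pathway were among the higher genes. Skil, the SnoN protein that represses SMAD targets, read 85.1 and 92.2 CPM with TGFb and 18 and 22.5 CPM in Th0 cells (2.13 ± 0.13). Smad7, which blocks the receptor, read 37.9 and 42.1 CPM in TGFb iTreg, against 21.7 and 22.2 CPM in Th0 cells (0.86 ± 0.12). Naive cells held more of both than either culture, at 189 and 195 CPM of Skil and 229 and 248 CPM of Smad7, so in these genes the TGFb cultures were nearer to the naive level than Th0 cells were. Pmepa1, a SMAD-sequestering membrane protein, had 20.5 and 29.1 CPM in TGFb iTreg, against 9.70 and 11.1 CPM in Th0 cells (1.25 ± 0.18), and Bambi, a decoy receptor, 5.74 and 6.45 CPM in TGFb iTreg, against 1.60 and 2.11 CPM in Th0 cells (1.71 ± 0.31). Ski, the relative of SnoN, had 186 and 168 CPM in TGFb iTreg, against 158 and 144 CPM in Th0 cells, and did not pass.

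A list of 41 genes known as TGFb targets in T cells or other tissues had 30 tested members, 16 higher and 1 lower, with a median log2 fold change of 0.71 (0.66 with a gene at 0 reads in a group set to its bound). Id1, an inhibitor of E protein transcription factors, had 21.0 and 20.4 CPM in TGFb iTreg, against 2.00 and 2.91 CPM in Th0 cells (3.07 ± 0.24). Id2 and Id3 followed at 0.58 ± 0.11 and 0.75 ± 0.11. Tmem176a and Tmem176b, paired membrane proteins whose reads may be shared in part, had log2 fold changes of 2.41 ± 0.18 and 2.21 ± 0.19. Junb, an AP-1 subunit, had 151 and 182 CPM in TGFb iTreg, against 68.0 and 83.0 CPM in Th0 cells (1.14 ± 0.20). The target that fell was Bhlhe40, a basic helix-loop-helix factor of cytokine-producing T cells, at 58.4 and 53.7 CPM in TGFb iTreg against 77.6 and 122 CPM in Th0 cells (-0.83 ± 0.16). Some targets known best from fibroblasts and epithelium were not detected: Tgfbi and Ctgf had no read in any of the 4 libraries.

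Genes of the Th17 program that were detected mostly read higher with TGFb, and its effector cytokines had at most 1 read in a library. Of 22 listed genes, 21 were in the table and 13 were tested; 10 were higher, 0 lower and 3 did not pass (8 to 10 higher without 1 library at a time), with a median log2 fold change of 1.43. Il17a, Il21, Il22 and Il23r had no read in any of the 4 libraries, and Il17f had 1 read in each TGFb library. Irf4, a factor needed for activated helper and effector Treg cells, had 91.8 and 57.9 CPM in TGFb iTreg and 31.0 and 24.6 CPM in Th0 cells (1.43 ± 0.28). Il6ra, the IL-6 receptor chain, had 181 and 167 CPM in TGFb iTreg, against 89.8 and 77.9 CPM in Th0 cells (1.05 ± 0.16), and Stat3, which carries its signal, was at 0.57 ± 0.08. Maf had 97 reads in the TGFb libraries and 3 in the Th0 libraries, a ratio of 30.0 (95% counting interval 9.96 to 148). Ccr6 had 30 reads against 1, a ratio of 27.8 (4.62 to 1135), so its size is poorly fixed.

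For the other helper programs the defining genes were low or did not pass. In the Th1 list, 9 of 18 tested genes were higher and 2 lower, and 5 were higher without TGFb replicate 2 and 6 without Th0 replicate 1; 1 was lower without TGFb replicate 2 or Th0 replicate 2. Ifng had no read, and Tbx21, the gene of the Th1 factor T-bet, was under the filter at 0.273 and 0.190 CPM in TGFb iTreg and 0.900 and 1.31 CPM in Th0 cells. The higher members were receptors and accessory genes: Il12rb2, a chain of the IL-12 receptor, had 9.20 and 5.60 CPM in TGFb iTreg, against 0.900 and 1.21 CPM in Th0 cells (2.80 ± 0.34), and Hopx, a homeodomain protein, 66.1 and 69.4 CPM in TGFb iTreg, against 25.6 and 26.7 CPM in Th0 cells (1.37 ± 0.17). In the Th2 list, 3 of 9 tested genes were higher, including Ccr4 (208 and 180.1 CPM in TGFb iTreg against 74.0 and 71.9 CPM in Th0 cells), and 3 were lower, including Il4ra, the IL-4 receptor (423 and 409 CPM in TGFb iTreg against 695 and 674 CPM in Th0 cells, -0.72 ± 0.07). Gata3, the Th2 factor, had 97.4 and 88.0 CPM in TGFb iTreg and 97.2 and 89.7 CPM in Th0 cells. Il4 had 0 reads in the TGFb libraries and 24 in the Th0 libraries, at least 8.63-fold lower against a floor of 3 reads over the group. Il4 was low even in Th0 cells, at 0.900 and 1.51 CPM.

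In the Tfh list, 2 of 13 tested genes were higher (15.4%) and 5 lower (38.5%), against 14.5% and 11.6% of all tested genes. The lower ones included Pou2af1 and Tcf7, described above, and Cd40lg, the CD40 ligand (-0.44 ± 0.09). Bcl6, the factor of Tfh cells, had 4.83 and 4.93 CPM in TGFb iTreg, against 1.90 and 2.41 CPM in Th0 cells and 26.4 and 28.2 CPM in naive cells. Without Th0 replicate 1, 3 genes were higher and 3 lower. In the cytotoxic list, 8 of 17 tested genes were higher and 2 lower (1 lower without each library in turn). Tnfsf10, the death ligand TRAIL, had 59.6 and 71.1 CPM in TGFb iTreg, against 10.9 and 14.4 CPM in Th0 cells (2.37 ± 0.13), and Gzmc, a granzyme, 49.0 and 47.4 CPM in TGFb iTreg, against 10.8 and 14.1 CPM in Th0 cells (1.95 ± 0.16). Granzyme genes are close copies, so their reads may be shared. Prf1, the pore protein perforin, had 44 reads in the TGFb libraries and 1 in the Th0 libraries, and 43.0 and 47.6 CPM in naive cells.

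The IL-2 and STAT5 response list had 15 of 24 tested genes higher and 4 lower, with a median log2 fold change of 0.71. Cish, a STAT5-induced feedback inhibitor, had 448 and 514 CPM in TGFb iTreg, against 228 and 254 CPM in Th0 cells (1.00 ± 0.13), and Socs2 579 and 609.9 CPM in TGFb iTreg, against 369 and 377 CPM in Th0 cells (0.67 ± 0.08). The kinase gene Pim1 was higher, at 626 and 647 CPM in TGFb iTreg against 386 and 376 CPM in Th0 cells (0.74 ± 0.11), while its relative Pim2 had the fall given above. Of 27 tested cytokine receptor genes, 13 were higher and 4 lower. Ifngr1, the ligand-binding chain of the interferon gamma receptor, had 489 and 539 CPM in TGFb iTreg, against 172 and 202 CPM in Th0 cells (1.46 ± 0.09). Il7r, the IL-7 receptor, had 60.8 and 60.5 CPM in TGFb iTreg, against 25.2 and 19.0 CPM in Th0 cells (1.46 ± 0.20), both far under the 640.2 and 504 CPM of naive cells.

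Surface genes of costimulation included several that T cells share with antigen-presenting cells. Cd80, a ligand of CD28 and CTLA-4, had 28.5 and 23.2 CPM in TGFb iTreg, against 4.10 and 4.52 CPM in Th0 cells. Cd86, the other such ligand, had 11.5 and 7.78 CPM in TGFb iTreg, against 1.80 and 1.91 CPM in Th0 cells. Pdcd1lg2, or PD-L2, had 5.92 and 6.83 CPM in TGFb iTreg, against 0.80 and 0.301 CPM in Th0 cells (3.50 ± 0.32). Over that list, 10 of 24 tested genes were higher and 2 lower (0 lower without TGFb replicate 2 or Th0 replicate 1, and 1 without Th0 replicate 2). Beside these genes, the defining myeloid markers Cd14, Csf1r, Lyz2, Flt3 and Clec9a had no read in any of the 4 libraries; 15 of 29 measured markers of that list were at 0, Itgam and Cd74 were called higher at up to 5.92 CPM, and the sum of the list was 32.6 and 26.6 CPM in the TGFb libraries and 17.6 and 33.2 CPM in the Th0 libraries. Of the B cell list, 8 of 13 measured markers were at 0, Ms4a1 and Pax5 among them. Of its 3 tested markers, Cd79b was called higher in TGFb iTreg (log2 fold change 1.78). The Cd79b call was lost without TGFb replicate 1 or Th0 replicate 2. The sum of the list was 4.01 and 3.32 CPM in the TGFb libraries and 2.20 and 1.51 CPM in the Th0 libraries.

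Homing receptor genes had 12 of 29 tested members higher and 2 lower, but the higher ones fell to 6, 7, 7 and 8 without TGFb replicate 1, TGFb replicate 2, Th0 replicate 1 and Th0 replicate 2. Itga6, the laminin-binding integrin chain, had 265 and 266 CPM in TGFb iTreg and 164 and 159 CPM in Th0 cells (0.72 ± 0.09). Ccr7, the receptor that leads naive cells into lymph nodes, had 263 and 288 CPM in TGFb iTreg, against 328 and 309 CPM in Th0 cells, and did not pass. Ccr9, the gut-homing receptor, had at most 0.600 CPM in these 4 libraries. Gpr15, another gut-homing receptor, had 56 reads in the TGFb libraries and 3 in the Th0 libraries, a ratio of 17.3 (95% counting interval 5.62 to 86.4). In the list of naive and memory genes, 12 of 32 were higher and 7 lower (4 lower without Th0 replicate 1): beside the fall of Tcf7, the quiescence gene Btg1 was higher at 207 and 227 CPM in TGFb iTreg against 112 and 103 CPM in Th0 cells (1.01 ± 0.09). Naive cells had 1190.5 CPM of Btg1 on average, so TGFb iTreg lay nearer to them than Th0 cells did.

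Of 27 tested early genes of T cell receptor signalling, 13 were higher and 2 lower, with a median log2 fold change of 0.62. Nr4a1, an orphan nuclear receptor that reports receptor signal strength, had 19.4 and 13.1 CPM in TGFb iTreg, against 4.80 and 5.63 CPM in Th0 cells (1.64 ± 0.23). The inhibitors of NF-kB Nfkbia and Tnfaip3 had log2 fold changes of 1.32 ± 0.18 and 1.09 ± 0.15. Naive cells had more of Nr4a1 and Tnfaip3 than either culture, with 116 and 207 CPM on average. Among transcription factors of T cell lineages, 19 of 33 tested genes were higher and 2 lower (11 higher without TGFb replicate 1 and 10 without Th0 replicate 1), including Ikzf3, or Aiolos, at 80.9 and 83.0 CPM in TGFb iTreg against 29.5 and 24.9 CPM in Th0 cells (1.59 ± 0.15).

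Genes of DNA replication and mitosis differed by small amounts. In the DNA replication list, 0 of 44 genes were higher and 26 lower, with a median log2 fold change of -0.33; the number of lower genes fell to 10, 13, 12 and 16 without TGFb replicate 1, TGFb replicate 2, Th0 replicate 1 and Th0 replicate 2, and to 4 when all 20 libraries of the table shared a fit. Mcm3, a subunit of the replicative helicase, had 451 and 404 CPM in TGFb iTreg, against 641 and 586 CPM in Th0 cells (-0.52 ± 0.09). Dut, which removes dUTP, had 139 and 154 CPM in TGFb iTreg, against 233 and 221 CPM in Th0 cells (-0.63 ± 0.10). No gene of this list fell by 2-fold, and naive cells, which do not divide, had 86.0 CPM of Mcm3 on average. In the mitosis list, 0 of 40 genes were higher and 18 lower, a number that rested on single libraries: it was 17 without TGFb replicate 1, 2 without TGFb replicate 2, 5 without Th0 replicate 1, 10 without Th0 replicate 2 and 0 with all 20 libraries. The median stayed between -0.41 and -0.20 when 1 library was left out.

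Ribosome biogenesis and Myc target genes had 3 of 48 tested members higher and 25 lower (10, 18, 11 and 16 lower without TGFb replicate 1, TGFb replicate 2, Th0 replicate 1 and Th0 replicate 2), with a median log2 fold change of -0.31. Wdr12, a factor of 60S ribosome assembly, had 54.5 and 53 CPM in TGFb iTreg, against 89.3 and 91.7 CPM in Th0 cells (-0.75 ± 0.09). Among the 3 higher members was Mxd1, which competes with MYC for its partner MAX. Mxd1 had 101 and 112 CPM in TGFb iTreg, against 19.7 and 21.2 CPM in Th0 cells (2.38 ± 0.12). Myc itself had 292 and 288 CPM in TGFb iTreg, against 271 and 299 CPM in Th0 cells, and did not pass. In a list of cell cycle inhibitors, cyclins and kinases, 3 of 14 tested genes were higher and 3 lower. The inhibitor gene Cdkn1a (p21) was higher at 51.3 and 45.4 CPM in TGFb iTreg against 27.6 and 32.1 CPM in Th0 cells. Its call was lost without Th0 replicate 1. Another inhibitor gene, Cdkn2c, was lower (log2 fold change -0.40), a call lost without TGFb replicate 1, TGFb replicate 2 or Th0 replicate 1. The kinase gene Cdk6 was lower at 21.3 and 21.4 CPM in TGFb iTreg against 34.5 and 41.6 CPM in Th0 cells (-0.83 ± 0.14).

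Of 32 tested genes of amino acid supply and the stress factor ATF4, 17 were lower and 1 higher (9 lower without TGFb replicate 1 or Th0 replicate 2, 14 and 20 without TGFb replicate 2 and Th0 replicate 1). Atf4 had 141 and 143 CPM in TGFb iTreg, against 213 and 275 CPM in Th0 cells (-0.78 ± 0.13). Psat1 and Phgdh, enzymes of serine synthesis, had log2 fold changes of -0.71 ± 0.09 and -0.50 ± 0.09. Of 31 cholesterol and fatty acid genes, 16 were lower and 1 higher (18, 4, 9 and 11 lower without TGFb replicate 1, TGFb replicate 2, Th0 replicate 1 and Th0 replicate 2). Lss, lanosterol synthase, had 85.3 and 59.5 CPM in TGFb iTreg, against 130.2 and 132 CPM in Th0 cells (-0.86 ± 0.15). The 1 higher gene, Elovl6, elongates fatty acids: it had 439.8 and 527 CPM in TGFb iTreg, against 131 and 197 CPM in Th0 cells and 14.8 and 19.2 CPM in naive cells (1.55 ± 0.20).

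Glycolysis and hypoxia genes depended on single libraries. Of 25 glycolysis genes, 11 were lower and 2 higher, with 11, 3, 15 and 3 lower without TGFb replicate 1, TGFb replicate 2, Th0 replicate 1 and Th0 replicate 2. Gapdh read 2088 and 1796 CPM in TGFb iTreg and 2462 and 2628 CPM in Th0 cells, and its call was lost without TGFb replicate 2 or Th0 replicate 2. Slc16a1, the lactate transporter MCT1, had 103 and 101 CPM in TGFb iTreg, against 152 and 159 CPM in Th0 cells (-0.60 ± 0.08), and kept its call without each library. Of 23 hypoxia genes, 9 were lower and 1 higher (9, 6, 13 and 6 lower in the same order, and 5 higher without Th0 replicate 2); Th0 replicate 2 exceeded Th0 replicate 1 by at least 2-fold in 5 of them. Ankrd37, a target of hypoxia-inducible factor, had 7.56 and 8.35 CPM in TGFb iTreg, against 27.3 and 30.9 CPM in Th0 cells (-1.87 ± 0.23). Of 55 oxidative phosphorylation subunits, 13 were lower and 0 higher, and the number was 0 without TGFb replicate 1 or Th0 replicate 1, 5 without TGFb replicate 2 and 10 without Th0 replicate 2.

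The Th0 libraries differed from each other in interferon response genes. In 19 of the 54 genes of that list (35.2%), Th0 replicate 2 was at least 2-fold above Th0 replicate 1, against 63 of all 11287 tested genes (0.558%). Rtp4, for one, read 5.10 and 4.75 CPM in TGFb iTreg and 4.4 and 44.6 CPM in the Th0 libraries. The TGFb libraries lay with Th0 replicate 1 in such genes. Over all tested genes, 14.5% were higher and 11.6% lower. With all libraries, 10 of the 54 (18.5%) were higher in TGFb iTreg and 9 (16.7%) lower (median log2 fold change -0.34). Without Th0 replicate 1 these numbers were 6 and 30, without Th0 replicate 2 they were 12 and 1, without TGFb replicate 1 they were 9 and 1, and without TGFb replicate 2 they were 6 and 2; the median was -0.68 without Th0 replicate 1 and 0.13 without Th0 replicate 2. The sign of the list therefore rests on which Th0 library is kept.

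A few interferon-related genes did not share that spread. Ifitm1 is given above; Ifitm2 had 485 and 518 CPM in TGFb iTreg, against 203 and 223 CPM in Th0 cells (1.24 ± 0.11), and Ifitm3 had 286 and 295 CPM in TGFb iTreg, against 74.0 and 106 CPM in Th0 cells (1.69 ± 0.16). Naive cells had at most 0.420 CPM of Ifitm1 and Ifitm2. Gbp3, a guanylate-binding GTPase, had 21.2 and 23.7 CPM in TGFb iTreg, against 7.40 and 9.85 CPM in Th0 cells (1.38 ± 0.18). Ifit2 was lower, at 27.5 and 27.0 CPM in TGFb iTreg against 41.4 and 50.2 CPM in Th0 cells (-0.75 ± 0.12). These 5 calls held without each library. The Ifitm and Gbp genes lie in clusters of similar copies, and reads may be split among them.

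**Figure D3:**
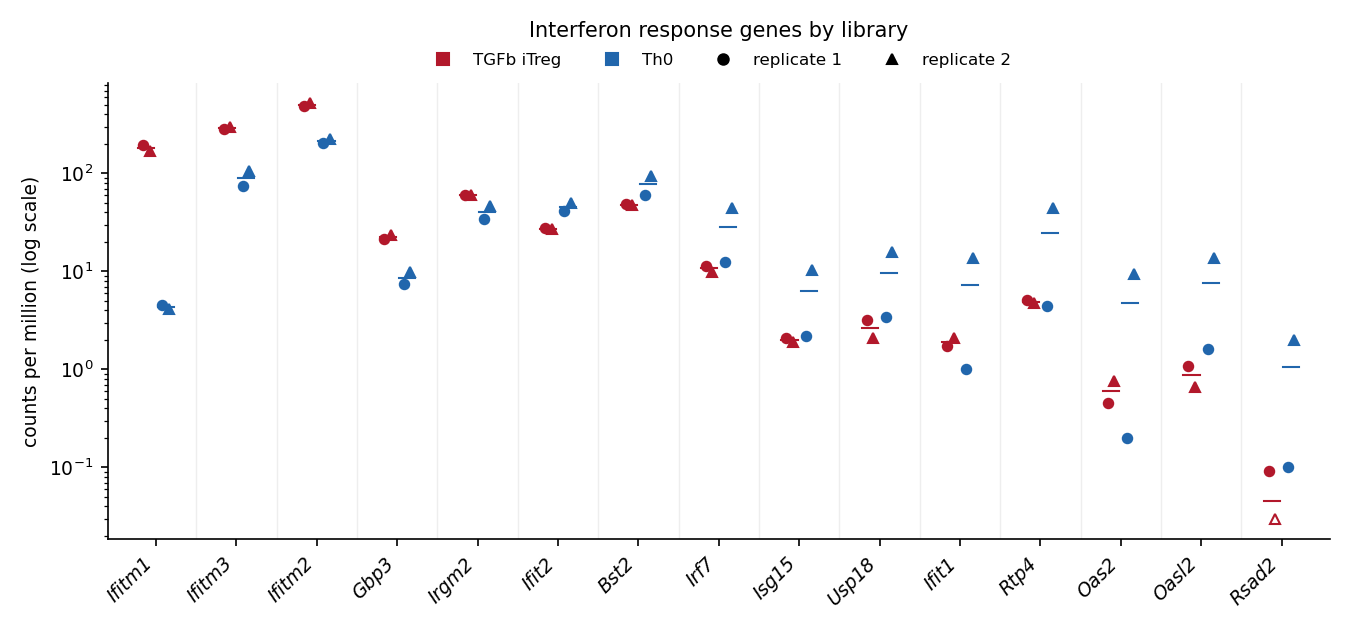
CPM of 15 interferon response genes in each TGFb (red) and Th0 (blue) library on a log axis, circles for replicate 1 and triangles for replicate 2, with lines at group means. For genes on the right, such as Rtp4 and Oas2, the blue triangle stands far above the blue circle and both red points, while for Ifitm1, Ifitm3, Ifitm2 and Gbp3 the red points lie above both blue ones.

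Among the genes of DNA methylation and its removal, some passed in each direction. Tet1 was lower in TGFb iTreg, at 3.82 and 2.47 CPM in TGFb iTreg against 7.80 and 10.2 CPM in Th0 cells, and 42.3 and 40.3 CPM in naive cells (-1.50 ± 0.24, edgeR adjusted p = 0.00037). Tet2 and Tet3 did not pass, with log2 fold changes of -0.27 ± 0.16 and -0.13 ± 0.15. The maintenance methyltransferase Dnmt1 had 655 and 604 CPM in TGFb iTreg and 762 and 752 CPM in Th0 cells and did not pass, nor did Dnmt3b. Dnmt3a had 89.4 and 73.4 CPM in TGFb iTreg, against 109 and 105 CPM in Th0 cells, a call lost without TGFb replicate 2 or Th0 replicate 1. Zbtb4, a reader of methylated DNA, was higher at 64.3 and 65.3 CPM in TGFb iTreg against 30.2 and 35.6 CPM in Th0 cells (0.98 ± 0.10). Over the list, 6 of 22 tested genes were higher and 5 lower, with 2, 2, 1 and 3 higher without TGFb replicate 1, TGFb replicate 2, Th0 replicate 1 and Th0 replicate 2, and 3 lower without TGFb replicate 2 or Th0 replicate 1.

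**Figure D4:**
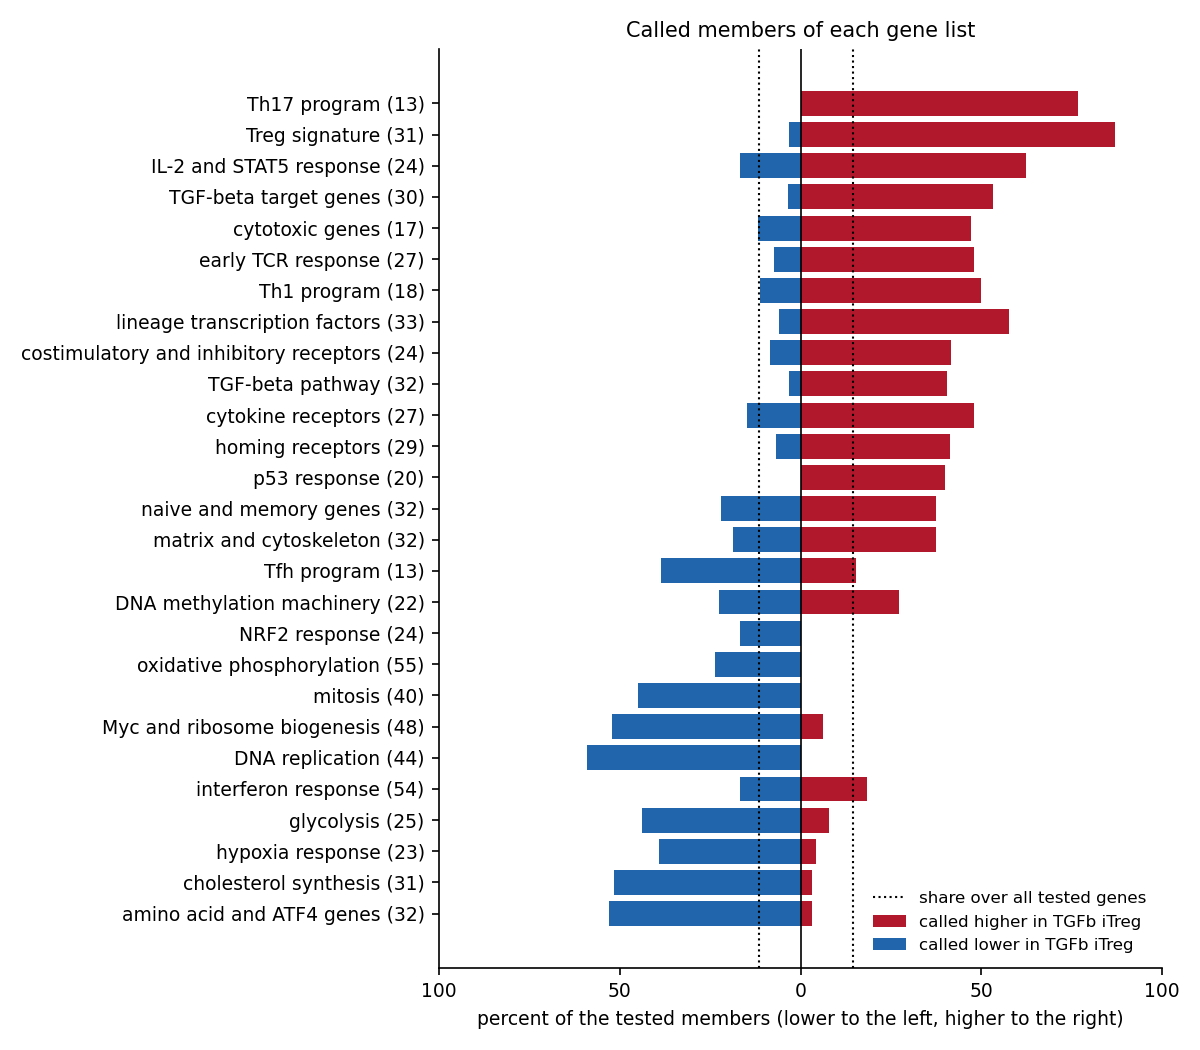
Share of the tested members of 27 gene lists called higher (red, to the right) or lower (blue, to the left) in TGFb iTreg, in percent, ordered by the median log2 fold change, with the number tested in brackets; dotted lines mark 14.5% and 11.6%, the shares over all tested genes. The Treg signature and Th17 lists have the largest shares of higher genes, and DNA replication, amino acid, Myc and cholesterol lists have large shares of lower genes; several of the lower shares move with single libraries, as given in the text.

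The genes that parted TGFb iTreg from Th0 cells were then read in comparisons without the TGFb and Th0 libraries. The naive libraries of the first comparison were also in the shared fit that called these genes. With the naive libraries left out of that fit, 492 of the 500 higher and 145 of the 154 lower genes were kept. Of the 500 genes 2-fold higher in TGFb iTreg, 424 were tested in control Treg against naive cells; 298 of them (70.3%) were higher in control Treg and 44 (10.4%) lower, with a median log2 fold change of 1.96. Among all genes tested in both comparisons, 25.5% were higher and 27.8% lower there, and 54.9% of all genes tested in that comparison were called, 28.6% higher and 26.3% lower. The 262 of the 500 that were 2-fold higher there made up 14.0% of the 1871 genes 2-fold higher in control Treg, which were 15.9% of those tested; 6.28% of those tested were 2-fold lower. Foxp3 (4.53), Ikzf2 (6.50), Nrp1 (5.75), Gpr83 (4.17) and Ctla4 (6.02) were all higher in control Treg on the log2 scale. Il7r, higher in TGFb iTreg, had -0.79 in control Treg and did not pass there. Of the 154 genes 2-fold lower in TGFb iTreg, 129 were tested; 40 (31.0%) were higher in control Treg and 52 (40.3%) lower. Tcf7 and Pim2 were lower in both, at -1.81 and -1.10 in control Treg, while Cxcr6 was higher in control Treg than in naive cells, at 3.67. The comparisons differ in more than Foxp3, since control Treg and naive cells came straight from mice of different ages and genotypes.

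In the restimulation experiment the same genes ran the other way. Of the 500 genes, 464 were tested in restimulated Foxp3-negative against day 6 Foxp3-positive cells; 314 (67.7%) were lower after restimulation and 82 (17.7%) higher, with a median log2 fold change of -1.13, against 35.3% lower and 34.0% higher among all genes tested in both. The 243 that were 2-fold lower made up 48.6% of the 500 and 23.2% of the 1048 genes 2-fold lower in that comparison, in which 68.8% of tested genes were called, 33.6% higher and 35.2% lower, and 9.31% were 2-fold lower. Of the 154 genes 2-fold lower in TGFb iTreg, 144 were tested, and 96 (66.7%) were higher after restimulation and 25 (17.4%) lower, with a median of 1.25. The 82 genes that were 2-fold higher made up 53.2% of the 154 and 12.1% of the 679 genes 2-fold higher there, which were 6.03% of those tested. When the genes were chosen without 1 library at a time, the share of the first set lower after restimulation was between 64.3% and 71.5%, and the share of the second set higher was between 52.4% and 67.4%. The share of the second set lower after restimulation was 34.3% without Th0 replicate 1 and 27.2% without Th0 replicate 2, against 17.4% with all libraries.

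Single genes show the same reversal. Ctnnd2 averaged 186 CPM in restimulated cells and 1.06 CPM in day 6 cells (log2 fold change 7.47), and Cxcr6 173 CPM in restimulated and 1.17 CPM in day 6 cells (7.18). Tcf7 stood at 1103 CPM in restimulated and 251 CPM in day 6 cells (2.12), and Pim2 at 334 CPM in restimulated and 91.9 CPM in day 6 cells (1.85). Gpr83 was lower after restimulation at 0.413 CPM, against 41.0 CPM on day 6 (-6.55), and Cd24a at 0.548 CPM, against 39.2 CPM on day 6 (-6.15). Exceptions were genes such as Ifngr1, which was higher in TGFb iTreg and higher again after restimulation (1.14), Il7r (1.70), and Nt5e (0.97). Ifitm1 barely moved, at 350.0 CPM after restimulation and 273 CPM on day 6 (0.34). In that experiment restimulation, time in culture and the sort for loss of Foxp3 go together and cannot be told apart.

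**Figure D5:**
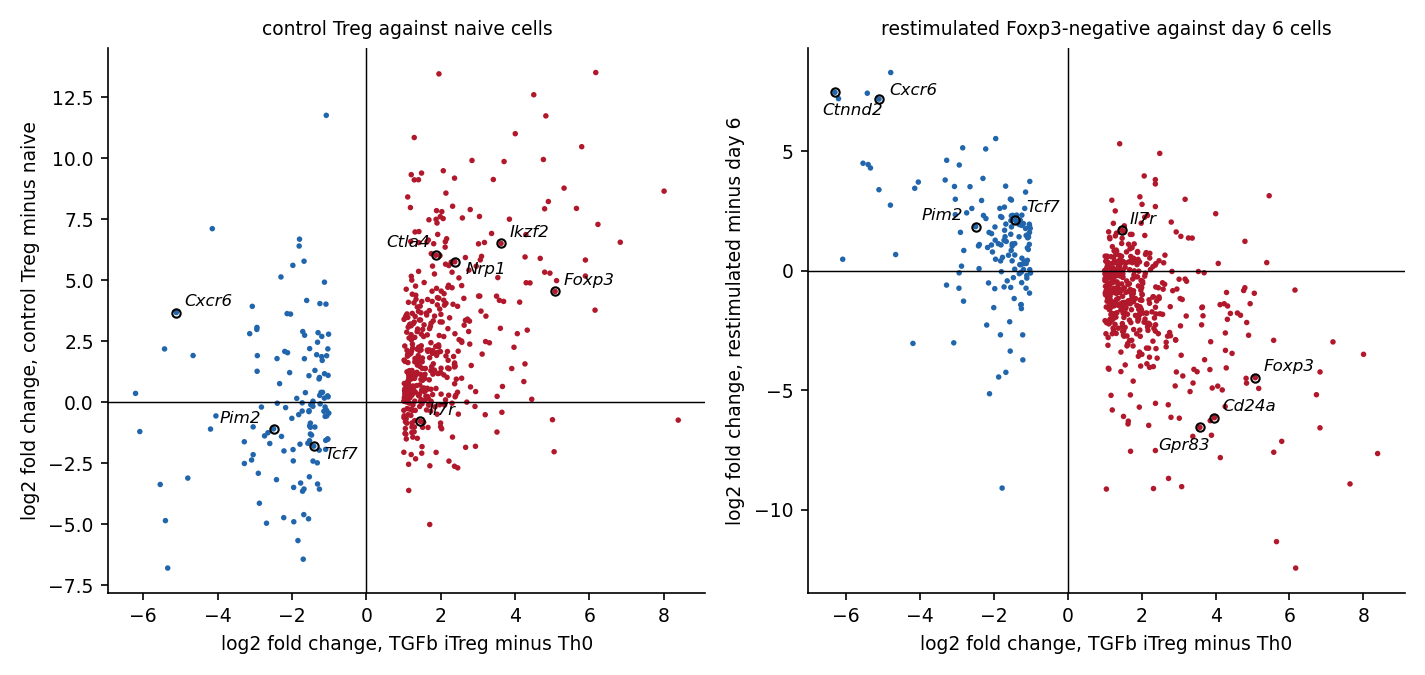
Log2 fold change of the genes called and at least 2-fold changed between TGFb iTreg and Th0 cells (horizontal axis, red for 500 higher and blue for 154 lower, where tested) against their log2 fold change in control Treg minus naive cells (left panel) and in restimulated Foxp3-negative minus day 6 Foxp3-positive cells (right panel). On the left most red points lie above 0 (298 of 424 tested genes called higher), and on the right most lie below it (314 of 464 called lower) while most blue points lie above it (96 of 144 called higher).

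The other cultures with TGFb, 2 libraries each, are compared with the same 2 Th0 libraries, so their values are given side by side only. Foxp3 had log2 fold changes over Th0 of 5.08 with TGFb, 5.83 with TGFb and vitamin C, 5.40 with TGFb and retinoic acid and 5.79 with all 3. Ctnnd2 was near or at 0 in each, with 0.455 and 0.285 CPM with TGFb, 0 and 0.0900 CPM with vitamin C added, 0.281 and 0.395 CPM with retinoic acid added and 0 and 0 CPM with both. Ifitm1 had 5.39 and 5.89 without retinoic acid and 0.59 and 0.69 with it. Both retinoic acid cultures thus lay near the Th0 level of Ifitm1, whereas all 4 TGFb cultures lay far above it for Foxp3. Hbb-b1 had 6.17 with TGFb, 5.23 with vitamin C added, 1.71 with retinoic acid and 0.60 with both. Id1 had 3.07, 2.95, 1.36 and 0.71. Skil, by contrast, had 2.13, 3.06, 2.48 and 2.98, and Tcf7 -1.41, -1.46, -1.27 and -1.60.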

How the data were processed

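RNA-seq libraries were made with a stranded mRNA kit, per the labels' protocols. The authors deposited raw counts per gene and FPKM values, which scale counts by exon length and by sequencing depth. The submitters' processing notes name TopHat2 2.1.1 and the build mm9, with edgeR 3.26.6 in R 3.6.1, and also Picard 2.5.0, Trim Galore 0.4.2, bcl2fastq 2.20.0.442 and SAMtools 1.7; the counting tool, its strand setting and the annotation are not given in the sources used here, so overlapping and near-identical genes are uncertain.

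The deposited counts of the 12 naive and cultured libraries in 6 groups were fitted together in edgeR 4.0.16 (R 4.3.3) with filterByExpr, TMM and robust quasi-likelihood fits, and the groups shared 1 estimate of the spread. Genes were called at a Benjamini-Hochberg adjusted p under 0.05 over all tested genes. Log2 fold changes are given with an SE worked back from the test, as the absolute log2 fold change over the square root of the quasi-likelihood F statistic. It is therefore approximate, above all for genes with few reads in a group. The deposited FPKM served for levels per length and for limma 3.58.1 on log2(FPKM + pseudocount); DESeq2 1.42.0 was an alternative. Control Treg against naive, and restimulated against day 6 cells, were fitted separately. Counts in rows without a symbol made up between 0.0278% and 0.0342% of each of the 4 libraries. Scripts were tested on simulated data.

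Named genes were a followed set, the 15 largest changes in each direction among called genes with a mean of at least 10 CPM in the higher group and no overlap, the 6 largest called members of each list, every member of short lists, and the 10 most abundant genes changed 2-fold. Naive and other values, and a few genes named for a group or a marker, stand beside them. The comparison, its 45 gene lists and the named genes were chosen with earlier results of these data known. Intervals and floors (3 counts over a group) cover counting error only.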

Additional observations from a re-analysis of the deposited data

How the results depend on the processing

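Of 2943 called genes, 2910 were also called with RLE factors (2935 called), 2369 with DESeq2 (2408), 2791 without the filter (2957 of 15002 tested), 2823 with the 4 libraries fitted alone (3581), 2757 without naive libraries (2828) and 2388 with all 20 libraries (2503). Tested against a log2 fold change of 1 with glmTreat, 229 genes passed, 171 higher and 58 lower, with 10 instead of 27 of the Treg signature list higher. Limma on log2(FPKM + 1) left 195 genes higher and 60 lower by 2-fold, and on log2(FPKM + 0.1) 499 and 139; the larger pseudocount shrinks the change of low genes. Leaving out 1 library gave 1480 to 1945 calls, 896 to 1127 of them higher and 584 to 847 lower; for control Treg against naive cells the calls were 4402 to 6755, and for restimulated against day 6 cells 7120 to 7713. Of 263 tested named genes, 219 were called, 136 of these under every alternative other than glmTreat, which was left out of this count, and none changed direction among called values. With the replicate number as a block, 3864 genes were called between TGFb iTreg and Th0 cells, and 8003 instead of 7745 between restimulated and day 6 cells. Genes that did not pass without the block but were called with it included Ccr7, Dnmt1, Ski and Tnfrsf9. Lower oxidative phosphorylation genes numbered 27 with the block and 3 with limma on log2(FPKM + 1), against 13 in the fit used above. Lower DNA replication genes numbered 34, 23 and 26 in the same order. Same-numbered TGFb and Th0 libraries deviated together with a correlation of only 0.0878, so the shared numbers were not taken to pair them; same-numbered libraries of the 4 TGFb cultures deviated together at 0.251 to 0.510. At these depths a gene with 0 reads in both TGFb libraries could still lie at up to 0.139 CPM.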

Other observations

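Genes of the p53 response had 8 of 20 tested members higher in TGFb iTreg and 0 lower. Trp53inp1, a p53-induced nuclear protein, had 407 and 318 CPM in TGFb iTreg, against 199.6 and 168 CPM in Th0 cells. Of 10 tested retinoid genes, 5 were higher and 0 lower, with 3 without TGFb replicate 1, TGFb replicate 2 or Th0 replicate 1; the receptor gene Rarg had 56.5 and 54.4 CPM in TGFb iTreg, against 35.1 and 30.4 CPM in Th0 cells. No retinoic acid is named for either culture.

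Matrix and adhesion genes were mixed, with 12 of 32 tested members higher and 6 lower (7 higher without TGFb replicate 1; 2 and 1 lower without TGFb replicate 2 and Th0 replicate 1). Lamc1, a laminin chain, had 124 and 112 CPM in TGFb iTreg, against 12.0 and 16.7 CPM in Th0 cells (log2 fold change 3.04). Sparc, a collagen-binding matrix protein, had 6.01 and 6.07 CPM in TGFb iTreg, against 0.20 and 0.502 CPM in Th0 cells. Fibrillar and basement membrane collagen genes Col3a1, Col4a1 and Col4a2 had no read in these 4 libraries.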
